A study of Mus musculus with 10 samples.

Results

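The alpha-arrestins are represented here by 5 mouse genes, Arrdc1, Arrdc2, Arrdc3, Arrdc4 and Txnip, measured in the liver of 10 mice. Every probe set annotated with the symbol of 1 of these genes alone was taken, which gave 9 probe sets among the 45101 of an Affymetrix mouse expression array, and the 5 genes stand among 12736 genes tested. The family, led by Arrdc3, was chosen by measured values of the same contrast, dn-cJun against control, so the difference between the groups in these 5 genes is a description and carries no test. The other 4 genes are its relatives with arrestin domains.

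By its description, the series compares a control group of 5 ApoE-/- mice with a dn-cJun group of 5 ApoE-/- mice. The controls, numbered 11 to 15, received an adenovirus carrying GFP. The mice labelled dn-cJun, numbered 16 to 20, received an adenovirus carrying a dominant negative form of cJun. cJun is a subunit of the transcription factor AP-1, and lipid homeostasis is the subject named in the series title. Each array holds the liver RNA of 1 mouse. The sources used here do not give age, sex, viral dose, time after infection or the liver cells reached by the virus.

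Some arrays go against their labels or stand apart. Apoe is the gene described as lost in all mice. Its log2 signal ranged from 9.42 to 10.94 across control arrays and from 15.31 to 15.82 across dn-cJun arrays. The groups thus differ in Apoe signal as well as in virus label, and the 2 go together in every array. Their parts in any difference between the groups cannot be told apart. The names control and dn-cJun are used as labels only. Jun was at 10.43 ± 0.24 (SD, n = 5) and 10.37 ± 0.37 (SD, n = 5) and does not check the virus label, since where its probe sets lie in the gene is unknown here. Xist, a long noncoding RNA that coats an inactive X, was at 13.71 and 13.63 in controls 14 and 15 and at 5.90 to 6.72 in the other 8 arrays, and the differences of the 5 genes are therefore given with and without these 2 controls. The array medians of the deposited intensity lay between 85.3 and 127.5. The log2 difference between 3 prime and 5 prime control probe sets for Gapdh lay between -0.51 and -0.40 in control arrays and between -0.52 and -0.35 in dn-cJun arrays, and 0.40 to 0.52 against 0.43 to 0.60 for Actb.

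As background, alpha-arrestins are adaptor proteins. Their arrestin domains recognise membrane proteins, and PPxY motifs in the tail of most of them bind ubiquitin ligases of the Nedd4 group, which mark the cargo for endocytosis. Txnip also binds and inhibits thioredoxin and promotes uptake of glucose transporters from the cell surface, and Txnip and Arrdc4 are classic targets of the glucose-sensing factors MondoA and ChREBP. Arrdc3 is known for its action on beta-adrenergic receptors and for the leanness of mice that lack it, and Arrdc1 for driving the budding of small vesicles from the plasma membrane.

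The sequences before the transcript starts are shown because Arrdc3, Txnip and Arrdc4 share a pattern among the control mice described further on, and because cJun binds DNA at AP-1 sites. They are the bases upstream of the RefSeq start (build GRCm38.p6), read 5′ to 3′ on the gene's strand, with capitals where 1 of the 6 motifs searched on both strands matched. All 5 genes matched the RefSeq table. Arrdc3 has 3 starts there, 2 of which overlap in their windows, and the first is printed. The windows are chr13:80883134-80883383 (plus strand) for Arrdc3, chr3:96557707-96557956 (plus strand) for Txnip and chr7:68749239-68749488 (minus strand) for Arrdc4.
Arrdc3: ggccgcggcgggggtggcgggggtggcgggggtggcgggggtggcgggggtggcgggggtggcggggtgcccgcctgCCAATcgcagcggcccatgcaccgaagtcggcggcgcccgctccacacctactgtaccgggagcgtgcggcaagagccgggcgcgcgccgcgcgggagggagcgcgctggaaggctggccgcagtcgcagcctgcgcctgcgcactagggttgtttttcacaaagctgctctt
Txnip: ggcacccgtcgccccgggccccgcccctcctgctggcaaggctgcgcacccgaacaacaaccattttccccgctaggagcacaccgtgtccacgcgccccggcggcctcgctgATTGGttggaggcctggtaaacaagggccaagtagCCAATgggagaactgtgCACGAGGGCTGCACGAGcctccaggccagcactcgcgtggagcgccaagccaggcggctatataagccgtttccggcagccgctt
Arrdc4: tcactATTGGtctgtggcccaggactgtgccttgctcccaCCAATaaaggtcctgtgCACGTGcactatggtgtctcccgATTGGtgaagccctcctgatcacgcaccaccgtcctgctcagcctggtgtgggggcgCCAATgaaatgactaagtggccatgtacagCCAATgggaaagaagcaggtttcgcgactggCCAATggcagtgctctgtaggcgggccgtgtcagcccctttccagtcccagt

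No window of the 5 genes held the AP-1 letters TGANTCA or the cyclic AMP response element TGACGTCA, which occur in 6.75% and 1.55% of the 32851 windows of the same length in the table. That says only that these letters are not in these windows. The Txnip window held the letters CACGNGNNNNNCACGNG, a pair of E-box-like elements 5 bases apart of the kind that MondoA and ChREBP bind, 85 bases before the start. Only 15 of all windows held this pair (0.0457%). Both elements of the pair in Txnip also match CACGAG, which was found in 5.37% of windows and also in those of Arrdc1 (2 matches) and Arrdc2 (1 match). Arrdc4 held the E-box CACGTG, present in 6.02% of windows, 193 bases before the start. The CCAAT box, bound by NF-Y, occurred 6 times in the Arrdc4 window, 3 times in that of Arrdc2, 2 times in that of Txnip and 1 time in the Arrdc3 window printed, and in 33.8% of all windows at least once. The GC content of the Arrdc3 window was 76.0%, against a median of 52.4% over all windows.

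**Figure D1:**
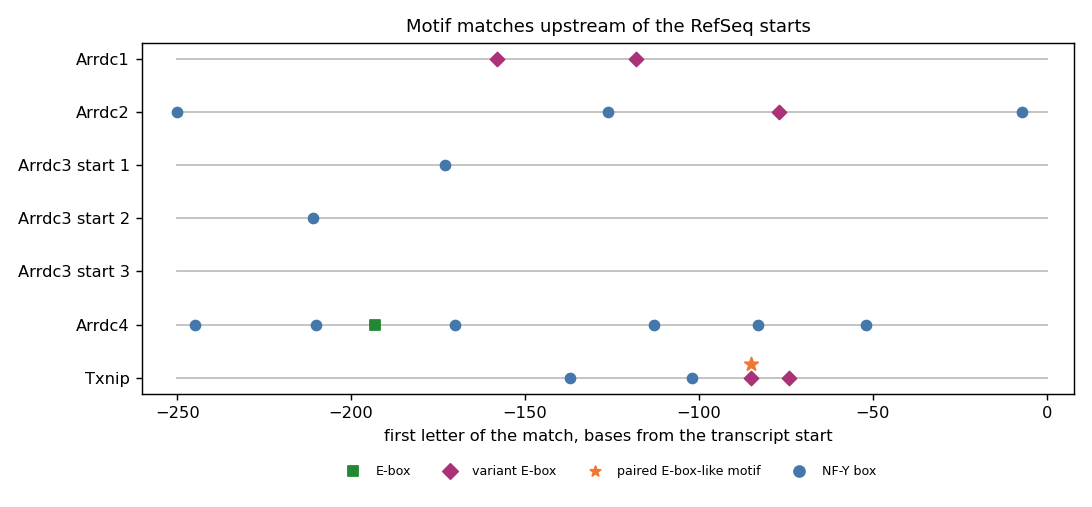
Motif matches in the windows upstream of each RefSeq transcript start of the 5 genes. The x axis gives the distance of the first letter of a match from the start in bases, each row is 1 start, and the symbols stand for the E-box (CACGTG), the variant E-box (CACGAG), the paired E-box-like motif and the NF-Y box (CCAAT). The paired motif appears in Txnip alone, and the 6 NF-Y boxes of Arrdc4 are the most of any row.

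Arrdc3 was lower in every dn-cJun mouse than in any control mouse. Its single probe set had deposited intensities of 6240 in control 11, 4599 in control 12, 3137 in control 13, 6086 in control 14 and 6585 in control 15. In the dn-cJun mice the intensities were 2063 in mouse 16, 2103 in mouse 17, 2357 in mouse 18, 1877 in mouse 19 and 2419 in mouse 20. The lowest control, mouse 13, therefore lay above the highest dn-cJun mouse, mouse 20, and the control mice were spread more widely than the dn-cJun mice.

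On the normalized scale, log2(intensity + 16) after quantile normalization, Arrdc3 was 12.25 ± 0.40 (SD, n = 5) in the controls and 11.18 ± 0.15 (SD, n = 5) in the dn-cJun mice. The difference, dn-cJun minus control, was -1.07 with a standard error of 0.16, so the signal was 2.10-fold higher in the controls. By absolute size it ranked 71 among the 12736 genes tested. Of the 5 family members only 1, Arrdc3, was called, and it was lower (limma with Benjamini-Hochberg adjustment over all genes, adjusted p under 0.05). The shares of all genes tested were 0.432% called lower and 0.777% called in either direction. This is the contrast the family was picked on, and nothing is read from the count. Over all 45037 probe sets, 1 of the 9 was called lower against 0.2%, and 1 of the 9 had groups that did not overlap with the dn-cJun arrays lower, against 1.33%.

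The Arrdc3 difference kept its direction when other choices were made. It was -0.86 (SE 0.15) without controls 14 and 15 and -1.23 (SE 0.11) without control 13, the control with the lowest signal. With 1 array left out at a time it ranged from -1.23 to -0.99 and remained called in 10 of 10 fits. It was -1.05 without control 11, the only array whose extraction entry names Trizol. The call was lost in 1 of 12 other alternatives, limma without the intensity trend, where 0 members were called and 1 had an unadjusted p under 0.05.

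**Figure D2:**
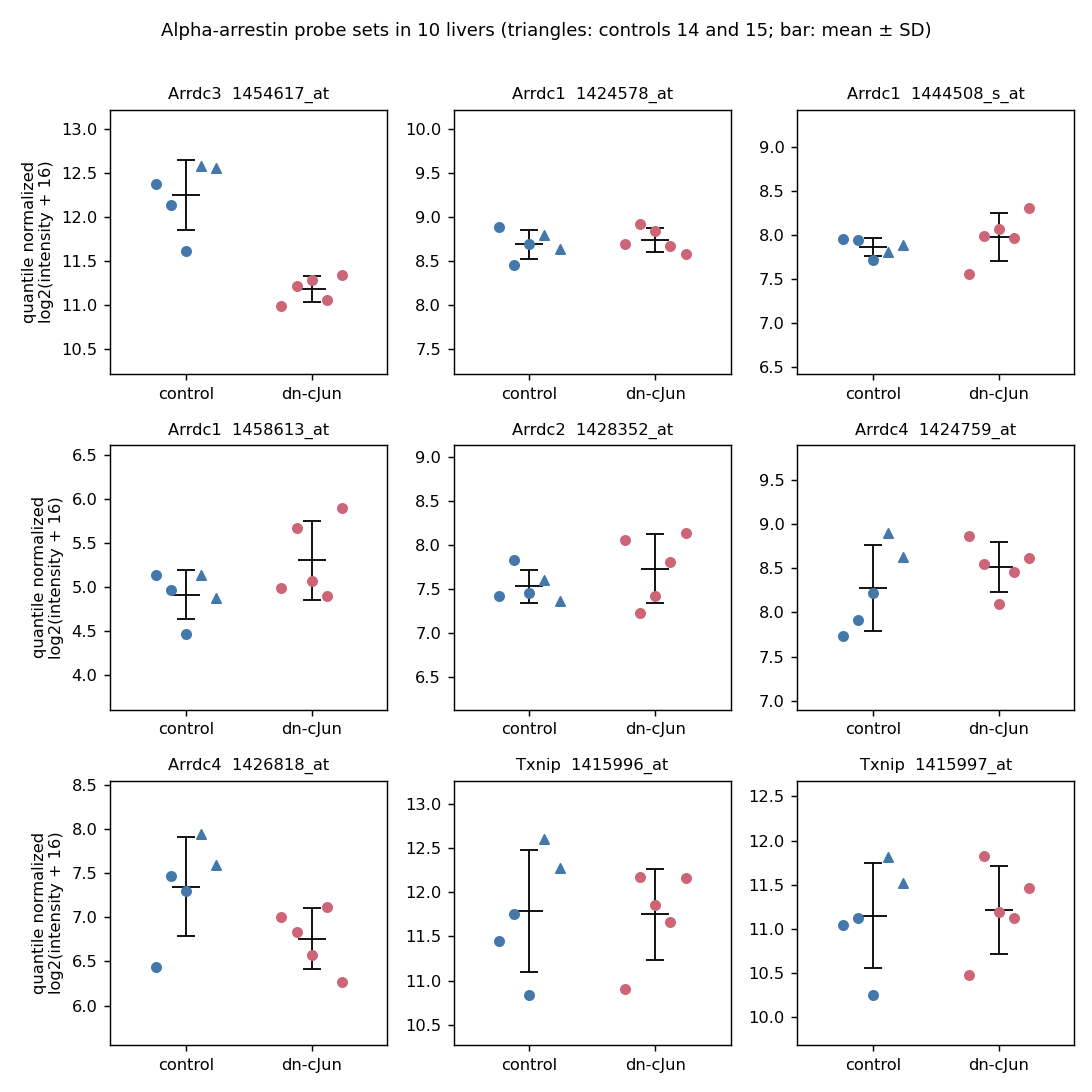
Quantile normalized log2(intensity + 16) of the 9 alpha-arrestin probe sets in each mouse. Points are mice, triangles are controls 14 and 15, bars show the mean ± SD of 5 mice, and every panel spans 3 log2 units. Only the Arrdc3 panel shows groups that do not overlap, with 11.62 as the lowest control and 11.34 as the highest dn-cJun mouse.

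Txnip, the thioredoxin inhibitor, did not share the Arrdc3 difference. Its brighter probe set was at 11.45 in control 11, 11.76 in control 12, 10.84 in control 13, 12.60 in control 14 and 12.28 in control 15. In the dn-cJun mice it was at 10.91 in mouse 16, 12.17 in mouse 17, 11.86 in mouse 18, 11.67 in mouse 19 and 12.16 in mouse 20. The groups overlapped over most of their range, with a low mouse in each, control 13 and dn-cJun 16.

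The Txnip means were 11.79 ± 0.69 (SD, n = 5) in the controls and 11.75 ± 0.52 (SD, n = 5) in the dn-cJun mice, a difference of -0.03 with a standard error of 0.31. The other Txnip probe set was at 11.04, 11.12, 10.25, 11.82 and 11.52 in controls 11 to 15 and at 10.47, 11.82, 11.19, 11.12 and 11.47 in dn-cJun mice 16 to 20. It followed the first closely from mouse to mouse (r = 0.973 for deviations from the group means) and gave a difference of 0.06 (SE 0.26). Standard errors of probe sets that do not stand for their gene come from the fit over all probe sets. Txnip had the largest SD of the 5 genes in both groups, so the size of a difference between the groups is poorly bounded. Without controls 14 and 15, Txnip was at 0.40, now with the dn-cJun mice higher, and with 1 array left out it lay between -0.27 and 0.18.

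Arrdc4, which like Txnip responds to glucose, gave opposite signs with its 2 probe sets. The brighter one was at 7.73, 7.91, 8.22, 8.90 and 8.63 in controls 11 to 15 and at 8.86, 8.55, 8.09, 8.46 and 8.62 in dn-cJun mice 16 to 20, a difference of 0.24 (SE 0.22). The dimmer one was at 6.44, 7.47, 7.29, 7.94 and 7.59 in the controls and at 6.26 to 7.12, with a median of 6.83, in the dn-cJun mice, a difference of -0.59 (SE 0.28). Both had overlapping groups and neither was called. The probe sets moved together within the groups (r = 0.682), and the mean of the 2 gave -0.18 (SE 0.22), so no direction is given for Arrdc4. Without controls 14 and 15 the brighter probe set gave 0.56 (SE 0.18). Against the same remaining controls the dimmer one was at -0.31, so the signs stayed opposite.

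Arrdc1, the vesicle-budding member, differed little. Its brightest probe set was at 8.88, 8.45, 8.69, 8.79 and 8.64 in controls 11 to 15 and at 8.69, 8.92, 8.84, 8.67 and 8.57 in dn-cJun mice 16 to 20. The means were 8.69 ± 0.16 (SD, n = 5) in the controls and 8.74 ± 0.14 (SD, n = 5) in the dn-cJun mice, a difference of 0.05 (SE 0.11), and the groups overlapped. A further probe set, at 7.71 to 7.96 across controls and 7.56 to 8.31 across dn-cJun mice, gave 0.12 (SE 0.16). The third, at 4.47 to 5.14 and 4.90 to 5.90, gave 0.39 (SE 0.28) and lay below the filter on low values at 6.06, and it was the only 1 of the 9 that did. The main Arrdc1 probe set did not follow the others within the groups (r = -0.124 and 0.103), while those 2 followed each other (r = 0.646). With the values as deposited, the Arrdc1 difference was -0.18, and without controls 14 and 15 it was 0.06 (SE 0.14).

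Arrdc2, a glucocorticoid-responsive member, was at 7.42, 7.83, 7.46, 7.60 and 7.36 in controls 11 to 15. It was at 8.06, 7.24, 7.42, 7.81 and 8.14 in dn-cJun mice 16 to 20, a difference of 0.20 (SE 0.19). Its dn-cJun mice spread on both sides of the controls, with an SD of 0.39 against 0.19. Without controls 14 and 15 the difference was 0.16 (SE 0.23).

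**Figure D3:**
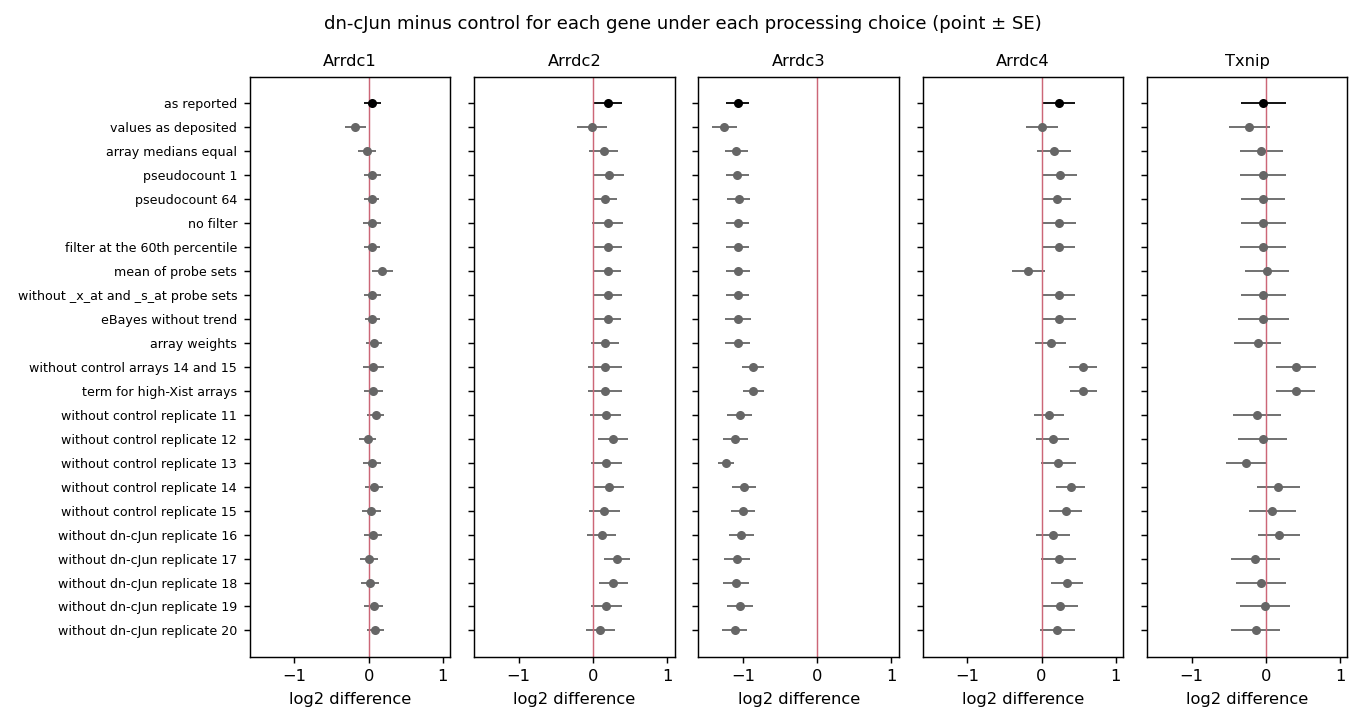
Log2 difference, dn-cJun minus control, of each of the 5 genes under each processing choice. Points are the differences, bars are ± SE, and the red line marks 0. Arrdc3 stays between -1.25 and -0.86 throughout, while the points of the other 4 genes fall on both sides of 0 over the choices shown.

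Among the controls, the 2 mice with high Xist had more signal in 3 of the 5 genes. Both lay above all 3 other controls in 5 of the 9 probe sets, those of Arrdc3, Arrdc4 and Txnip, where 13.3% of all probe sets showed that order. The 9 probe sets share genes and arrays, and this order was not tested. For Txnip the 2 mice were at a mean of 12.44 against 11.35 in the other controls, a difference of 1.09. For Arrdc4 the difference was 0.81 with the brighter probe set and 0.70 with the other. For Arrdc3 the means were 12.57 and 12.04, a difference of 0.53, and the dn-cJun mice were 0.86 below those 3 controls. In the probe sets of Arrdc1 and Arrdc2 the 2 mice were not both above the others, and control 15 was the lowest control for Arrdc2.

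Apart from the difference between the groups, Arrdc3 and Txnip varied together from mouse to mouse. After each group's mean was removed, Pearson's r over the 10 mice was 0.849 and Spearman's rho 0.83, and the other Txnip probe set gave 0.843 and 0.782. These values use no part of the contrast between the groups, but all genes share the same arrays, and they are given as a description over 10 pairs of members. Control 13 deviated by -0.63 in Arrdc3 and by -0.95 in Txnip, and dn-cJun 16 by -0.19 and -0.85. Control 14, at the other end, deviated by 0.33 and 0.82. Without control 13 and dn-cJun 16, the farthest from the median, r was 0.689, and without controls 14 and 15 it was 0.719. Txnip ranked 44 among 12735 genes by its correlation with Arrdc3.

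The other pairs were weaker or depended on a few arrays. Arrdc4 followed Txnip with an r of 0.335 and Arrdc3 with 0.254, and without controls 14 and 15 these became -0.556 and -0.669. Without control 13 and dn-cJun 16, on the other hand, Arrdc4 and Txnip had an r of 0.908. Arrdc1 and Arrdc2 ran against each other at -0.767, but at -0.209 with the values as deposited and at -0.0386 for the second Arrdc1 probe set. The remaining 6 pairs, with the probe set that stands for each gene, lay between -0.192 and 0.222. The other Arrdc1 probe sets reached beyond that range in both directions. They gave 0.465 and 0.63 with Arrdc3 and 0.574 and 0.652 with the brighter Txnip probe set. With the brighter Arrdc4 probe set they gave -0.381 and 0.0815, and with the dimmer one -0.501 and -0.353. In each case the second value is that of the Arrdc1 probe set below the filter on low values.

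**Figure D4:**
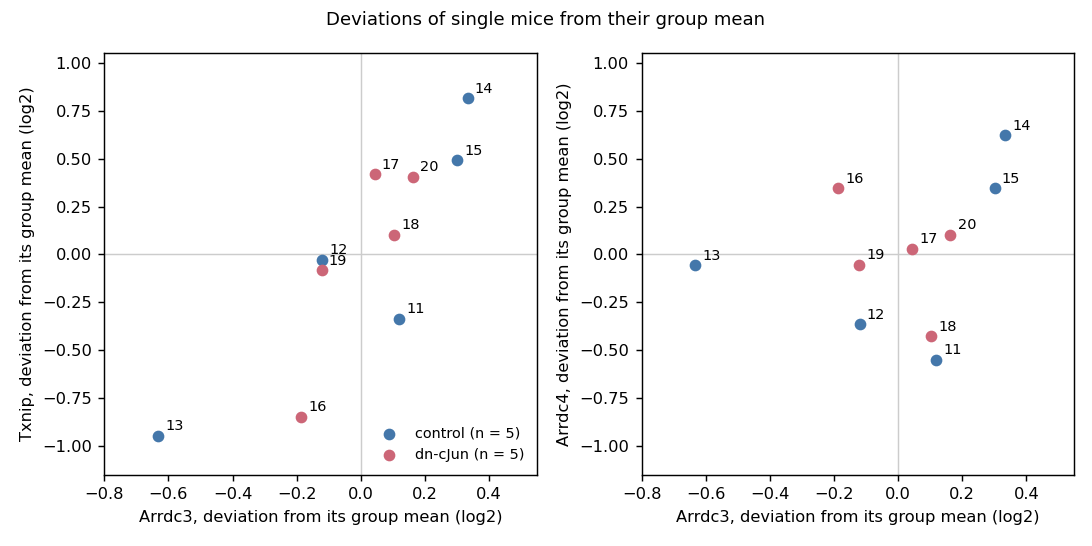
Deviation of each mouse from its group mean, in log2 units, for Arrdc3 against Txnip (left) and Arrdc3 against Arrdc4 (right). Points are mice with their number, blue for control and red for dn-cJun. Mice 13 and 16 are low and mouse 14 high in both Arrdc3 and Txnip (r = 0.849), and Arrdc4 follows Arrdc3 less closely (r = 0.254).

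The genes most like each member were found by the same correlation of deviations, over 12735 genes and 10 mice. For Arrdc3 they were Ids, a lysosomal sulfatase, at 0.964, Sptlc1, a subunit of the first enzyme of sphingolipid synthesis, at 0.952, and Cyp2c39, a cytochrome P450, at 0.933. None of these 3 was called between the groups, with differences of 0.27, 0.19 and -0.42. The most opposite were Pagr1a at -0.940, Fbxo8 at -0.939 and Ubxn1 at -0.936. For Txnip the closest were Trio at 0.946, Acad11, an acyl-CoA dehydrogenase, at 0.941 and L1cam at 0.934. For Arrdc4 they were Hacl1 at 0.946, Riox2 at 0.922 and Blvra, biliverdin reductase, at 0.921. For Arrdc1 they were Gsr, glutathione reductase, at 0.957, Kif23 at 0.951 and Vcp at 0.948, and for Arrdc2 they were Itih5 at 0.944, Stim2 at 0.929 and Ccnj at 0.928. No gene of these lists belongs to the family.

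The partners of the family, 117 genes in 9 lists, were read from the same fit over all genes. Of 104 partner genes tested, 1 was called, Scd1, which fell. At an unadjusted p under 0.05 there were 29, 19 higher and 10 lower, where 14.9% of all genes passed that level. The lists were chosen with earlier results of these data known, so nothing is read from these counts or from those of single lists. The count of calls depended on the processing, from 0 to 7 over the alternatives.

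Of the ubiquitin ligases and adaptors that bind PPxY motifs, 0 of 10 tested were called with limma and 2 had an unadjusted p under 0.05, both higher. Itch, a ligase of the Nedd4 group that binds Txnip, had the smallest p. Its signal spanned 10.11 to 10.38 among control mice and 10.49 to 10.65 among dn-cJun mice, and its difference was 0.32 (SE 0.08, limma adjusted p = 0.0751). The ranges did not overlap, but the difference did not pass, and it was 0.25 without controls 14 and 15 (limma adjusted p = 0.232). With the values as deposited it was 0.11 (limma adjusted p = 0.499). The further Itch probe sets gave 0.21, 0.11 and 0.29. The share of all genes whose ranges lay apart with the dn-cJun mice higher is not given here. The median of the list was 0.09, against 0.0015 for all genes tested.

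Of the ESCRT genes, which bud vesicles and sort ubiquitinated cargo, 0 of 12 were called with limma and 2 had an unadjusted p under 0.05, 1 in each direction. Vps37a had the smallest p, at 0.47 (SE 0.11, limma adjusted p = 0.0817), and its further probe sets gave 0.21 and 0.13. The median was -0.03. Of the other proteins with an arrestin fold, 0 of 7 were called and 0 had an unadjusted p under 0.05 with limma. The smallest p was that of Vps26c, a subunit of the retriever complex, at -0.21 (SE 0.12). Of the membrane proteins reported as cargo, 0 of 7 were called with limma and 1 had an unadjusted p under 0.05. That was Insr, the insulin receptor, at 0.32 (SE 0.11, limma adjusted p = 0.174), and it was -0.22 as the mean of its probe sets. The beta-adrenergic receptors in that list were not analysed here.

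Of the thioredoxin system, on which Txnip acts, 0 of 12 were called with limma and 3 had an unadjusted p under 0.05, all higher. Prdx2, a peroxiredoxin, had the smallest p, at 0.22 (SE 0.07, limma adjusted p = 0.158), but 0.062 with the values as deposited. The median of the list was 0.05. Of the transcription factors known to act on members, 0 of 13 were called with limma and 4 had an unadjusted p under 0.05, 3 of them higher. Nr3c1, the glucocorticoid receptor, had a difference of 0.39 (SE 0.10, limma adjusted p = 0.0935). As the mean of its probe sets it gave -0.011. The median was 0.0018.

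The target lists of these factors held the partner gene that was called. Of 17 targets of ChREBP and MondoA, 1 was called lower and 0 higher, and 6 had an unadjusted p under 0.05, 5 of them lower. Scd1, the desaturase that makes oleate, was at 15.56, 15.65, 15.67, 15.15 and 15.03 in controls 11 to 15. It was at 14.53, 14.02, 14.57, 14.40 and 14.90 in dn-cJun mice 16 to 20. The groups did not overlap, the difference was -0.93 (SE 0.16, limma adjusted p = 0.0228), and the further probe set gave -1.49. The Scd1 call was lost when array medians were made equal (limma adjusted p = 0.0676), without the intensity trend (limma adjusted p = 0.0924), or without control 13, dn-cJun 17 or dn-cJun 19 (limma adjusted p = 0.0537, 0.0571 and 0.0604). Controls 14 and 15 were the lowest controls in Scd1, whereas they were the highest in Txnip. The list median was -0.24.

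Of 14 FOXO targets, 0 were called with limma and 7 had an unadjusted p under 0.05, 4 higher and 3 lower. The lists share genes: Insr is also counted among the cargo proteins and G6pc among the ChREBP and MondoA targets. The median was 0.17. Pck1, a gluconeogenic enzyme, had the smallest p, at 0.43 (SE 0.11, limma adjusted p = 0.0858). Of 14 glucocorticoid receptor targets, 0 were called with limma and 6 had an unadjusted p under 0.05, all of them higher, and the list median of 0.34 was the highest of the 9. Over all genes tested, 14.9% passed that level. By sign, 9 of the targets were higher and 5 lower, among the latter Mt2 at -0.28 and Fkbp5 at -0.02. Errfi1, a feedback inhibitor of the EGF receptor, spanned 14.27 to 14.79 among control mice and 14.78 to 15.02 among dn-cJun mice, with a difference of 0.44 (SE 0.10, limma adjusted p = 0.0544). Its adjusted p was 0.0215 to 0.168 over the limma alternatives named in the closing section. Zbtb16, named here after its values were seen, spanned 7.38 to 8.49 among control mice and 8.58 to 10.03 among dn-cJun mice. The share of all genes with ranges apart in that direction is not given, so nothing is read from the gap. The difference was 1.25 (SE 0.27, limma adjusted p = 0.0552). Zbtb16 was called only with a term for controls 14 and 15 (limma adjusted p = 0.0391) and without dn-cJun 18 (limma adjusted p = 0.0436). Its further probe sets gave 1.12 (SE 0.32) and 0.40 (SE 0.40). Arrdc2 and Arrdc3 have themselves been described as glucocorticoid-responsive, and their differences had opposite signs, 0.20 for Arrdc2 and -1.07 for Arrdc3.

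**Figure D5:**
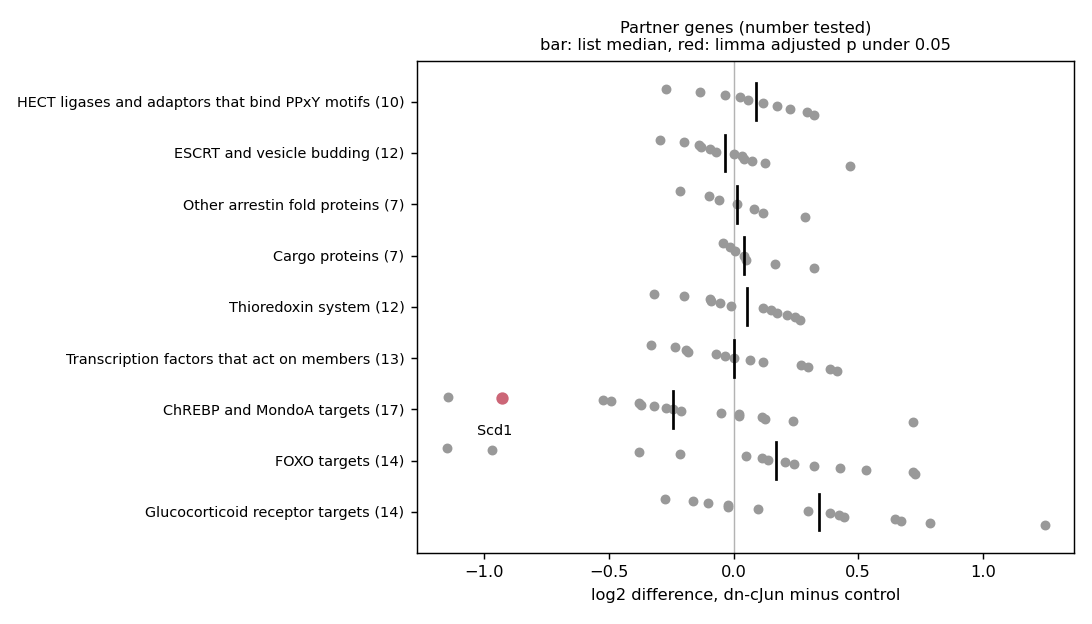
Log2 difference, dn-cJun minus control, of each partner gene tested, by list. Grey points are genes that were not called, the red point is Scd1, the single gene called, and the black bars are list medians, from -0.24 for the ChREBP and MondoA targets to 0.34 for the glucocorticoid receptor targets.

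Liver RNA holds several cell types, and in such bulk samples fewer cells of a type and less RNA per cell cannot be told apart. Hepatocyte markers were abundant in all mice, with 0 of 5 called by limma and 1 with an unadjusted p under 0.05. Their signals, summed on the linear normalized scale, came to 211800 to 237800 among control mice and 228200 to 254800 among dn-cJun mice. Of 8 markers of Kupffer cells and macrophages, 2 fell, Lyz2 at -0.70 (SE 0.13, limma adjusted p = 0.0294) and Cd5l at -0.57 (SE 0.11, limma adjusted p = 0.0323). Over all genes tested, 0.432% were called lower. Summed over the 8 markers, the signal came to 20740 to 30970 among control mice and 17640 to 20910 among dn-cJun mice. On that linear scale the brightest markers weigh most, Lyz2 and Cd5l among them, so the sum is not separate from their fall. By sign, 6 of the 8 were lower and 2 higher, Marco at 0.24 (SE 0.58) and Vsig4 at 0.05 (SE 0.18). Clec4f, which marks Kupffer cells, was at -0.15 (SE 0.22). The part of these cells in the Arrdc3 difference was not tested. Of the markers of endothelium, stellate cells, bile duct, lymphocytes, neutrophils and muscle, 0 were called with limma. The stellate cell, bile duct and muscle lists held 1 gene each with an unadjusted p under 0.05. These were Pdgfrb at -0.55 (SE 0.18), Krt19 at -0.89 (SE 0.32) and Ckm at 0.79 (SE 0.35). A further Pdgfrb probe set gave -1.49 (SE 0.33), and a further Ckm probe set, below the filter, gave -0.60 (SE 0.33). By sign, 4 stellate cell markers were lower and 2 higher, and 3 bile duct markers were lower and 1 higher. Of 3 fat cell markers, 2 had a probe set with 1 symbol, and both were below the filter on low values.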

How the data were processed

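Liver RNA of 10 mice was measured on Affymetrix mouse expression arrays, 5 per group. The authors deposited probe set intensity on a linear scale, made with software not given in the sources used here. Values were taken as log2(intensity + 16) and quantile normalized, because array medians spanned 0.50. Control probe sets (64) were left out. Of 34945 probe sets with 1 gene symbol in the platform annotation, the brightest stood for its gene, and a filter at the 40th percentile of signal kept 12736 genes. Groups were compared with limma 3.58.1 in R 4.3.3 (lmFit, eBayes with an intensity trend, two-sided, Benjamini-Hochberg adjustment, threshold 0.05), over all genes and, for single probe sets, over all 45037. The fit was also run on simulated data with independent noise for each gene and array. Such data hold no shared array effects, so that run does not bear on how the calls depend on processing. Figures were drawn with matplotlib 3.10.9.

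The members and lists were chosen with earlier results of these data known. Named were all member probe sets, the called genes of each partner list (up to 4) or the one with the smallest p, and for each member the 3 genes with the highest within-group correlation, for Arrdc3 also the 3 lowest. Of 117 partner genes, 110 had a probe set with 1 symbol. Per the labels, each array is 1 mouse, and 5 arrays a group limit the precision. Alternatives were no normalization, array medians made equal, pseudocounts of 1 and 64, a filter at the 60th percentile or none, averaging a gene's probe sets, exclusion of _x_at and _s_at probe sets, eBayes without trend, array weights, each array left out, controls 14 and 15 left out, and a term for these arrays.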

Additional observations from a re-analysis of the deposited data

How the results depend on the processing

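No paired analysis was possible because the replicate numbers of the groups do not repeat. The number of arrays limits all values. The Arrdc3 difference kept its direction in 12 alternatives and with each of 10 arrays left out, from -1.25 to -0.86. With 1 array left out, the differences ranged from -0.01 to 0.10 for Arrdc1 and from 0.10 to 0.32 for Arrdc2. They ranged from 0.10 to 0.39 for the brighter Arrdc4 probe set. It was at 0.56 both without controls 14 and 15 and with a term for them. In those 2 fits 2 members had an unadjusted p under 0.05 with limma, against 1 otherwise. The dimmer Arrdc4 probe set was at -0.31 against the controls other than 14 and 15, so no direction is given for Arrdc4 there either.

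With the values as deposited, Arrdc1 was at -0.18, 7 partner genes were called (1 higher, 6 lower) and the correlation of Arrdc1 with Arrdc2 was -0.209. Among uncalled partners, Vps37a was then at 0.25, Vps26c at -0.42, Insr at 0.12 and Nr3c1 at 0.18. With the mean of probe sets, Arrdc4 was at -0.18, Insr at -0.22 and Nr3c1 at -0.011, and 2 partner genes were called. Partner genes called were 0 with equal array medians (27 at an unadjusted p under 0.05 with limma), 2 at the 60th percentile and 2 without controls 14 and 15. They were 4 with a term for these arrays. Without the intensity trend 0 members and 0 partners were called with limma (1 and 24 at an unadjusted p under 0.05). With 1 array left out, 0 to 4 partners were called, 4 without control 12, 2 without dn-cJun 18 and 0 without dn-cJun 17 or 19. Without controls 14 and 15 the correlation with Arrdc4 was -0.669 for Arrdc3 and -0.556 for Txnip. The cause of these changes was not tested.

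Over all genes, 99 were called, against 490 as deposited, 65 with equal medians, 44 with the mean of probe sets, 9 without trend, 52 without controls 14 and 15 and 156 with the term. They were 13 (without dn-cJun 17) to 199 (without control 12) with 1 array left out. The limma adjusted p of Errfi1 was 0.0312 as deposited, 0.0479 at the 60th percentile, 0.0365 without control 12 and 0.0215 without control 13. In every other alternative it was above 0.05, up to 0.168 without controls 14 and 15.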
